A study of Mus musculus with 23 samples.

Results

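Undiluted acetophenone was compared with 1% acetophenone in the 11 libraries of the acetophenone experiment, out of 23 libraries in the series. All libraries of that experiment were taken, as the labels assign them, and no measured value chose them. Each library held RNA pulled down with ribosomes carrying phosphorylated S6 protein (pS6) from the olfactory epithelium of C57BL/6 mice at postnatal day 21. An exposure of 1 h is given for every library, the controls included. The controls carry the label No and a dose of 0%. The groups were: 100% acetophenone in litters 1, 2 and 3 (3 libraries), 1% acetophenone in litters 3, 4 and 5 (3 libraries), and a control in each of litters 1 to 5 (5 libraries). The labels name no transgene or deletion, and they do not say how many animals went into a library, so the p-values measure the spread between these libraries.

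Each olfactory neuron expresses 1 odorant receptor gene out of a very large family. Odor binding to the receptor opens a cyclic AMP cascade, and the active neuron phosphorylates S6 on its ribosomes. A pull-down of pS6 therefore enriches the messages of active neurons, the receptor message among them. Acetophenone is a sweet-smelling aromatic ketone, and a higher concentration of an odorant generally engages receptors that a low concentration does not reach. In bulk tissue such as this, fewer cells of a type and less RNA per cell cannot be told apart.

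The doses share only litter 3. Litter was therefore kept in the model as a block, and the controls tied the other litters together. In an equal-weight version of that fit, the difference of the 100% and 1% libraries of litter 3 carries a weight of 0.5. Each of litters 1 and 2 (100% minus its control) carries 0.25, and each of litters 4 and 5 (1% minus its control) carries -0.25. The litter 3 control then has a weight of 0 in the dose contrast.

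Unique counts per library ranged from 2187268 to 2946194 at 100%, from 2118099 to 3998370 at 1%, and from 2389806 to 4151769 in the controls. Markers of the labelled tissue were present in all 11 libraries: Omp of mature olfactory neurons had 325 to 7337 counts, Gap43 of immature neurons 1312 to 2853, and Cyp2g1 of sustentacular cells 3716 to 7904. Some genes went with the litter more than with the dose. The early-response genes Junb and Jund had at most 1 count in each of the 5 libraries of litters 2 and 3, and at least 224 in each of the other 6. Adcy3, the adenylyl cyclase of olfactory cilia, had 40 and 13 counts in the 100% and 1% libraries of litter 3 and 14 in their control, against 891 or more elsewhere. The litter block removes such offsets only as far as they are shared within a litter. The control of litter 1 also held 28333 counts of 8 anterior pituitary genes (0.909% of its counts), led by growth hormone (Gh, 16552) and prolactin (Prl, 9027). The other 10 libraries held 3 to 578 counts of these genes.

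No gene passed the test between 100% and 1% acetophenone. Of 12873 genes tested with edgeR's quasi-likelihood test, 0 reached an adjusted p of 0.05 (0% called), and the smallest adjusted p was 0.0998. At an unadjusted p under 0.05, 453 genes were higher at 100% (3.52%) and 354 were lower (2.75%). DESeq2 on the same libraries called 4 genes: Olfr30 (adjusted p = 0.0415), Pcdh10 (0.0295) and Cenpf (0.0294) were higher at 100%, and Dlk1 (9.86e-06) was lower. limma voom with litter as a random effect called 0. The values below are therefore given with their errors as differences that did not pass the adjusted test.

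**Figure D1:**
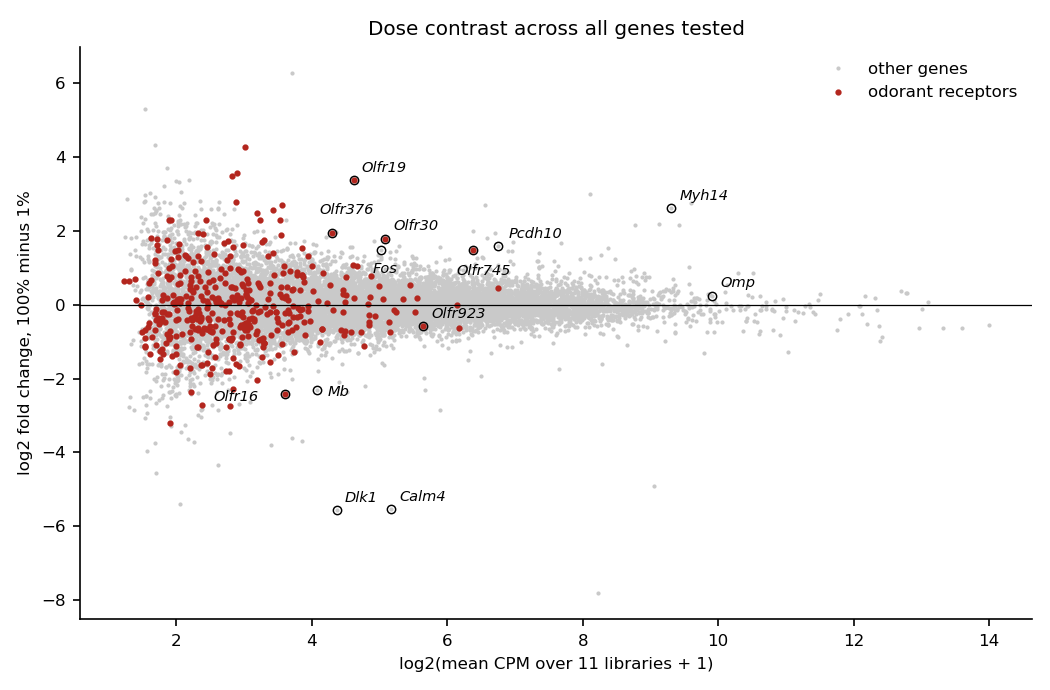
Log2 fold change of 100% over 1% acetophenone for all 12873 genes tested (vertical axis) against log2 of the mean CPM over the 11 libraries plus 1 (horizontal axis), with odorant receptors in red and some named genes ringed. Receptors lie mostly at low levels, where the scatter is widest, and Olfr19, Olfr376, Olfr30 and Olfr745 lie above the bulk at their level.

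The sequences of the receptors that the comparison turns on are shown to let a reader see how far these genes differ. Each stretch runs over 45 bases of the coding strand, read from the GENCODE M21 transcripts (GRCm38, the same assembly as mm10), and the capitals mark the codons of the conserved aspartate-arginine-tyrosine triplet at the end of the third transmembrane helix. Olfr30, Olfr376, Olfr19, Olfr1047, Olfr937 and Olfr745 had higher fitted levels at 100%, and Olfr923 did not.
Olfr30: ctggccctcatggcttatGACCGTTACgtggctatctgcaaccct
Olfr376: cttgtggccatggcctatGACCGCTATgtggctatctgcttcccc
Olfr19: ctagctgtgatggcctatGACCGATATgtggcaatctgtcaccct
Olfr1047: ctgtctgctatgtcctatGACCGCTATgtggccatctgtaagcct
Olfr937: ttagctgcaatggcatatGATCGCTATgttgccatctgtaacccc
Olfr745: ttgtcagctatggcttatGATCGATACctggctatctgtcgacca
Olfr923: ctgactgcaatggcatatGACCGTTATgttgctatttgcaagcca
Over the whole coding sequence, of 930 to 987 bases, the 21 pairs of these 7 genes were 55.2 to 69.0% identical, with a median of 59.5%. The closest pair was Olfr937 and Olfr923.

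Several odorant receptors had higher levels at 100% than at 1%. Olfr30, a receptor gene on chromosome 11 (58454105 to 58462270, minus strand, mm10), had 53.0, 125 and 61.7 CPM (counts scaled to a common library size, with TMM factors) in the 100% libraries of litters 1, 2 and 3, against 21.9, 10.7 and 22.8 CPM in the 1% libraries of litters 3, 4 and 5. The 5 controls had 8.73 to 19.2 CPM. Every 100% library was above every 1% library, and of the 1% libraries that of litter 4 lay within the range of the controls while those of litters 3 and 5 lay just above it. The fitted level was 3.48-fold higher at 100% (log2 1.80, SE 0.31, 95% interval 1.11 to 2.49, unadjusted p = 0.000141, edgeR adjusted p = 0.68). Relative to the control of its own litter, Olfr30 was at 4.27, 6.31 and 6.63 times at 100%, against 2.40, 1.13 and 1.33 times at 1%. In an exact permutation test of these log2 ratios, 3 against 3, the 2-sided p was 0.1, the smallest that the design allows. The litter 3 ratios at both doses share 1 control, which that test does not take into account.

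Olfr376, also on chromosome 11 (73371246 to 73377836, plus strand), had 10.1, 57.6 and 60.8 CPM at 100%, against 14.6, 14.8 and 18.3 CPM at 1%. Its controls had 0.70 to 9.92 CPM, the lowest in litter 1. The 100% library of litter 1 was thus below all of the 1% libraries in level, yet it was 7.83 times its own control, and the ratios to own controls were 7.83, 8.87 and 5.80 at 100% against 1.44, 2.34 and 2.77 at 1%. The fitted difference was log2 1.96 (SE 0.40, 95% interval 1.07 to 2.85, edgeR adjusted p = 0.68).

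Olfr19 on chromosome 16 (16672228 to 16676405, minus strand) had 44, 351 and 209 counts at 100%, against 26, 3 and 7 at 1%. The controls had 5, 6, 17, 8 and 0. In CPM these were 15.3, 125 and 91.4 at 100%, against 11.2, 0.82 and 2.25 at 1%, with no overlap between the doses. The step was log2 3.38 (SE 0.76, 95% interval 1.70 to 5.05, edgeR adjusted p = 0.737).

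Olfr745 on chromosome 14 (50639388 to 50643885, plus strand) reached the highest level of any named receptor. It had 63.1, 363 and 291 CPM at 100%, against 72.3, 16.5 and 14.5 CPM at 1%. The controls had 0.62 to 47.2 CPM, so the controls differed widely among litters. Against their own controls the libraries were at 6.77, 7.59 and 13.2 times at 100% and at 3.30, 2.50 and 11.7 times at 1%. These ratios overlapped, and the litter 5 control held 2 counts. The fit gave a step of log2 1.50 (SE 0.43, edgeR adjusted p = 0.737). It was 0.69 without the libraries of litter 3.

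Olfr1047 on chromosome 2 had 16.7, 30.6 and 41.1 CPM at 100%, against 9.04, 1.37 and 2.57 CPM at 1% (log2 2.58, SE 0.66). Olfr937 on chromosome 9 had 8.72, 43.4 and 31.1 CPM at 100%, against 5.16, 1.10 and 0.96 CPM at 1% (log2 2.30, SE 0.77). The edgeR adjusted p was 0.737 for Olfr1047 and 0.754 for Olfr937. The 100% libraries were above the 1% libraries throughout for both genes. The value for Olfr937 was log2 0.40 without the 1% library of litter 3. Its controls had 0 to 3 counts each.

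**Figure D2:**
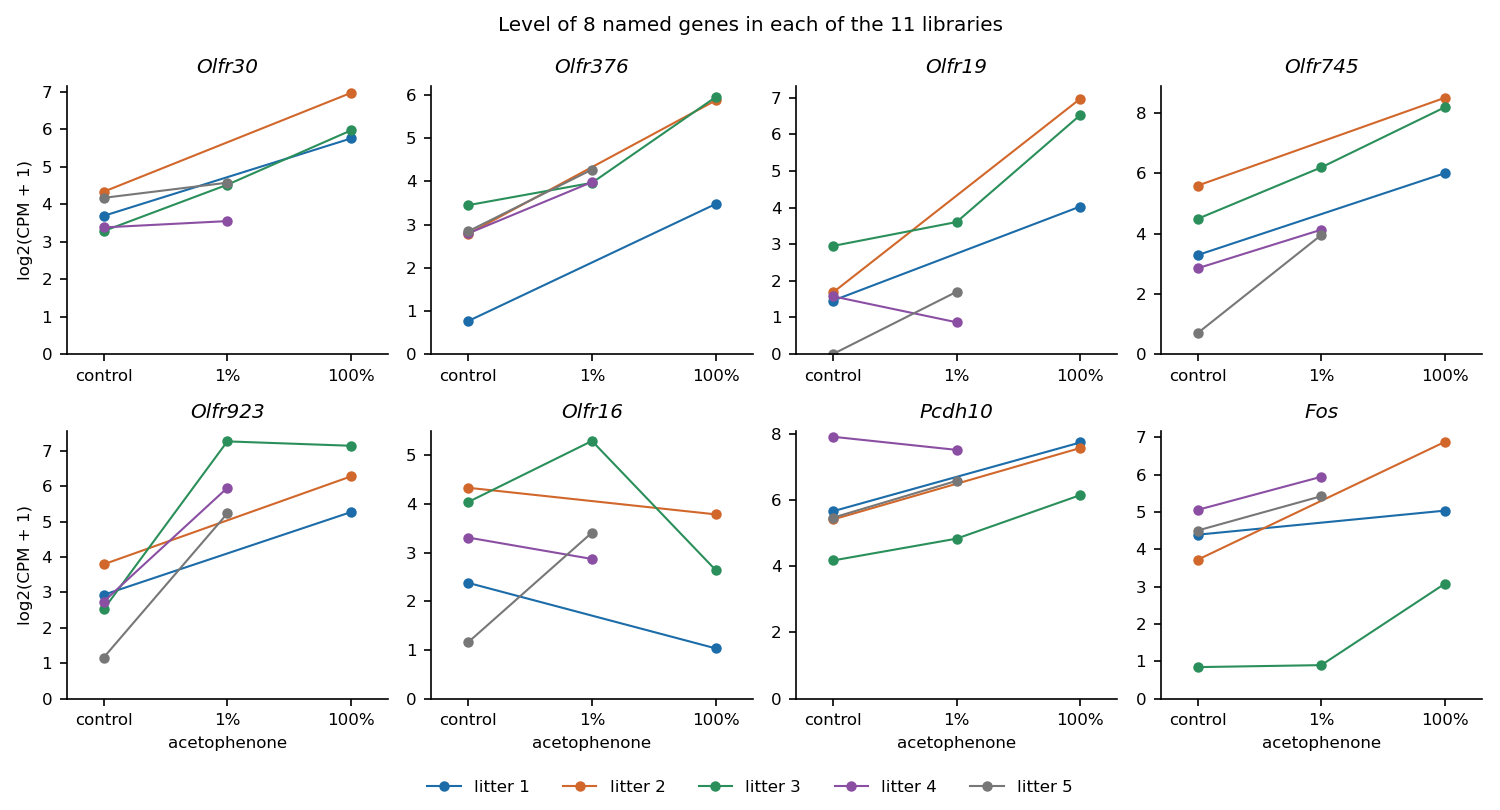
Level of 8 genes as log2(CPM + 1) (vertical axis) in controls, at 1% and at 100% acetophenone (horizontal axis), with 1 point per library and a line joining libraries of the same litter. Olfr30 and Pcdh10 lie highest at 100% within each litter that had it, Olfr923 is as high at 1% as at 100% in litter 3 (154 and 141 CPM), and Fos in litter 3 starts from 0.79 CPM.

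Other receptors had levels at 1% in the range of those at 100%. Olfr923 on chromosome 9 (38826545 to 38830300, plus strand) had 37.7, 76.8 and 141 CPM at 100%, against 154, 61.2 and 36.7 CPM at 1%. The 5 controls had 1.24 to 12.9 CPM, below all odor libraries. The dose difference was log2 -0.58 (SE 0.44, 95% interval -1.54 to 0.39, unadjusted p = 0.216), which leaves room for a level up to 1.54 log2 units lower at 100% and 0.39 higher. Olfr923 rose at 100% against the controls (log2 3.26, SE 0.38, edgeR adjusted p = 0.008) and at 1% against the controls (log2 3.83, SE 0.40, edgeR adjusted p = 0.0167). Those 2 comparisons share the litter 3 control and 1 fit. In litter 3 itself, the levels were 141 CPM at 100%, 154 CPM at 1% and 4.76 CPM in the control.

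Olfr983, Olfr1377 and Olfr491 had been listed with Olfr923 as high at 1% in a comparison of these same libraries. They had dose differences of log2 -0.65, -0.29 and -0.15, with SEs of 0.48, 0.68 and 0.43. None passed edgeR's test against the controls at either dose. DESeq2 called all 3 at 100% (adjusted p = 0.0108, 0.0152 and 0.00649) and at 1% (adjusted p = 0.000208, 0.00168 and 0.00125). Olfr491 had 17.1, 74.4 and 80.1 CPM at 100%, against 45.2, 75.7 and 23.8 CPM at 1%, and the groups overlapped. Of the 10 receptors listed in the same way as high at 100%, 6 had an unadjusted p under 0.05 here, all higher (Olfr30, Olfr376, Olfr19, Olfr1047, Olfr745 and Olfr937). Olfr1104 (log2 0.79, SE 0.43), Olfr1026 (1.04, SE 0.78), Olfr136 (0.17, SE 0.54) and Olfr923 did not. These lists were chosen on the same libraries and are no independent evidence.

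In the same fit, each dose could be set against the controls. In edgeR's test at 100%, 10 genes rose (0.0777% of those tested): the receptors Olfr30, Olfr376, Olfr745, Olfr937, Olfr923, Olfr1047, Olfr1104, Olfr19 and Olfr744, and the adhesion gene Pcdh10. Dlk1 alone fell (0.00777%). At 1%, in the same test, Olfr923 alone rose (0.00777%) and 0 genes fell (0%). The split into higher and lower went with the method. At 100% it was 37 and 3 with DESeq2, 22 and 30 with libraries scaled to receptor counts, and 23 and 5 with no filter on low counts. At 1% it was 16 and 21 with DESeq2, 19 and 46 with receptor scaling, and 11 and 10 with no filter. limma voom with litter as a random effect called 1 gene at 100% (Olfr30, adjusted p = 0.0118) and 0 at 1%. At 1%, Olfr30 was at log2 0.63 (SE 0.26) over the controls, Olfr376 at 1.21 (SE 0.31) and Olfr1047 at 1.64 (SE 0.56), and none of these passed the test (edgeR adjusted p = 0.771, 0.617 and 0.699). A gene past the threshold at 100% only is not thereby shown to differ between the doses, and edgeR's direct test called 0 genes, while DESeq2's called Olfr30, Pcdh10 and Dlk1 among these. The count at 100% was 0 without the control or the 100% library of litter 2, and 0 without the 100% library of litter 3. It was 6 without the control of litter 3, 7 without the 1% library of litter 3, and 18 without the 1% library or the control of litter 5. The count at 1% was 0 without the control of litter 2, without the 1% library of litter 3, and without either library of litter 4, against 7 without the 1% library and 5 without the control of litter 5.

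**Figure D3:**
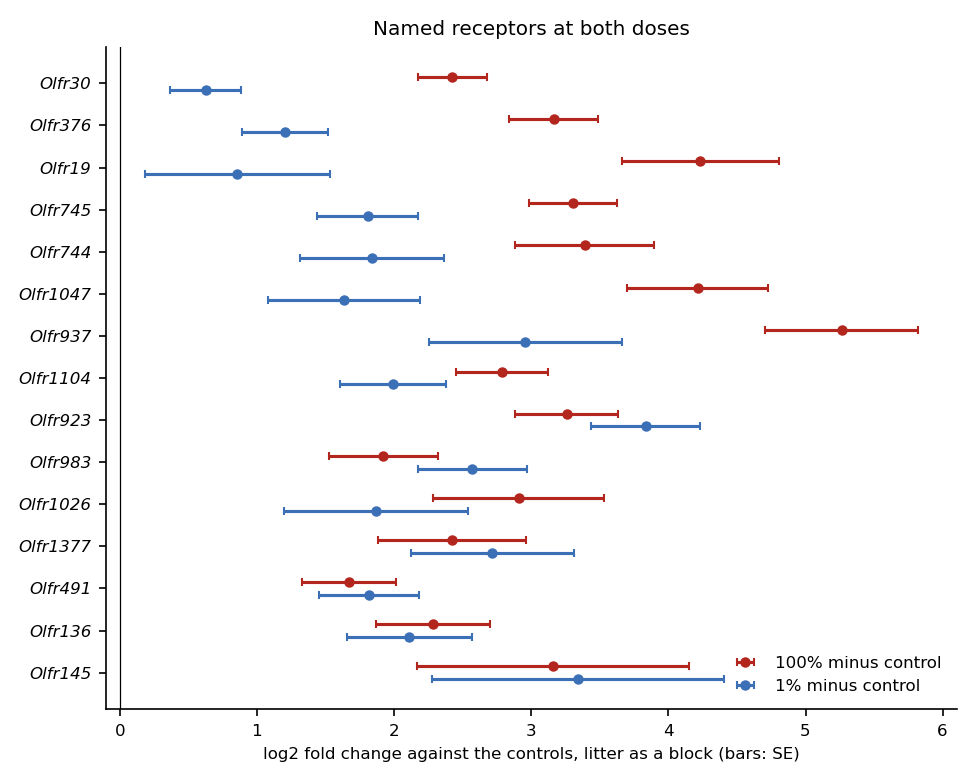
Log2 fold change against the controls for 15 receptors, at 100% (red, upper point of each pair) and at 1% (blue, lower point), from 1 fit with litter as a block; bars are SEs. Olfr30, Olfr376, Olfr19, Olfr745, Olfr744, Olfr1047 and Olfr937 lie further right at 100%, while the bars of Olfr923, Olfr983, Olfr1026, Olfr1377, Olfr491, Olfr136 and Olfr145 overlap.

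Of the 1122 receptor symbols listed, 1037 had a count in some library and 408 passed the filter on low counts. Of these 408, 22 were higher at 100% at an unadjusted p under 0.05 (5.39%) and 11 were lower (2.7%), beside 3.52% and 2.75% over all genes tested. The 3 ratios to own controls at 100% all lay above the 3 at 1% for 28 receptors (6.86%, beside 5.27% of all genes), and all below for 22 (5.39%, beside 5.24%). Of the 408 receptors, 101 had a mean count under 10. The 22 higher receptors lay on 8 chromosomes. They were 6 of 95 tested on chromosome 2, 4 of 23 on chromosome 19, 3 of 91 on chromosome 7 and 3 of 31 on chromosome 11. All 22 were higher at 100% than at 1% within litter 3. The litter 3 difference has the largest weight in the contrast that chose the 22, so this is no separate evidence. The number of higher receptors was 39 without the 1% library of litter 5 and 35 without the control of litter 5. It was 14 without the 1% library of litter 3, 13 without the control of litter 4, 9 without all of litter 3 and 41 without all of litter 5. The number of lower receptors was 6 to 19 when single libraries or litters were left out, and 0 with no litter block. limma voom gave 41 higher and 6 lower.

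Other receptors of the higher set had few counts at 1%. Olfr1087 on chromosome 2 had 13, 72 and 78 counts at 100%, against 2, 4 and 13 at 1%. Olfr1449 on chromosome 19 had 34, 56 and 40 counts at 100%, against 3, 6 and 1 at 1%. Their controls reached 12 and 17 counts. The step was log2 4.28 (SE 1.07) for Olfr1087 and 3.49 (SE 0.79) for Olfr1449. Olfr1349, with a step of log2 1.09 (SE 0.33), was better covered: it had 68, 87 and 51 counts at 100%, against 21, 81 and 94 at 1%, and 41 to 125 in the controls. For that gene the 1% libraries were lower than their own controls, and the levels of the odor groups overlapped.

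Of the 11 receptors lower at 100%, the 1% library of litter 3 had the highest count among the 1% libraries in all 11, and the highest CPM of all 11 libraries in 7. Over all 408 receptors tested it had the highest count among the 1% libraries in 265 (65.0%) and the highest CPM of all in 83 (20.3%). That library has the largest weight of the 1% libraries in the contrast that chose the 11, so its high counts there are no separate evidence. Olfr16 had 1.05, 12.8 and 5.25 CPM at 100%, against 38.3, 6.31 and 9.65 CPM at 1%, and its controls had 1.24 to 19.2 CPM. Its fitted step was log2 -2.42 (SE 0.71, edgeR adjusted p = 0.737). Olfr1157 had 3.49, 7.47 and 5.25 CPM at 100%, against 18.9, 5.21 and 5.79 CPM at 1% (log2 -2.75, SE 0.82). The levels at 100% and at 1% in litters 4 and 5 overlapped for both genes. The lower set had mean counts of 3.67 to 32.7 at 100% and 10.3 to 47.3 at 1%.

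Receptors known to respond to acetophenone from earlier work were poorly covered. Olfr151, also called M71, had 0 counts in all 11 libraries, which allows up to 3 counts in each. Olfr160, also called M72, did not pass the filter. It had 2, 44 and 20 counts at 100%, against 7, 4 and 6 at 1%. The controls had 3, 0, 1, 2 and 2 counts. The libraries of litters 2 and 3 at 100% thus stood above all the others, and the 100% library of litter 1 did not. Olfr145 had 3.49, 6.76 and 4.81 CPM at 100%, against 6.45, 1.92 and 1.29 CPM at 1% (log2 -0.18, SE 0.94), with at most 1.47 CPM in the controls.

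The share of counts on the receptor family as a whole, set against each library's own control, overlapped between the doses. Receptors took 0.273, 0.727 and 0.825% of counts in the 100% libraries of litters 1, 2 and 3, against 0.728, 0.225 and 0.260% in the 1% libraries of litters 3, 4 and 5. The 95% Wilson interval was 0.813 to 0.837% for the highest share, at 100% in litter 3, and 0.716 to 0.739% for 1% in the same litter, and covers counting error only. The ratios to own controls were 1.41, 1.50 and 1.69 at 100%, against 1.49, 0.902 and 1.94 at 1%. The mean log2 ratio was 0.611 ± 0.131 at 100% and 0.461 ± 0.561 at 1% (SD, n = 3 each), and an exact 2-sided permutation test of the difference of 0.15 gave p = 0.8, with 0.1 as the smallest possible. Here too the litter 3 ratios at both doses share their control. Without litter 4 the difference was -0.154. The median receptor differed by log2 -0.11 between the doses, beside 0.00 over all genes, and with receptors more scattered (quartiles -0.66 and 0.56, against -0.29 and 0.32 for all genes).

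**Figure D4:**
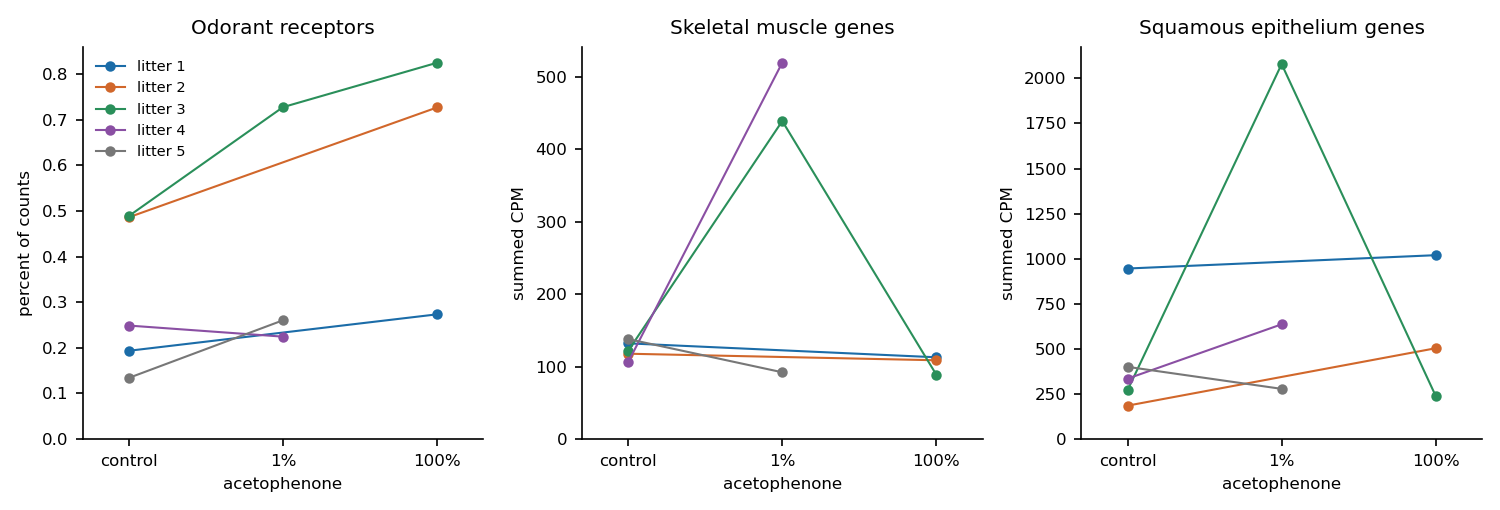
Percent of counts on odorant receptors, summed CPM of skeletal muscle genes and summed CPM of squamous epithelium genes (vertical axes) in controls, at 1% and at 100% acetophenone (horizontal axis), with 1 point per library and a line joining each litter. Receptor shares go mainly by litter, while the muscle sum is 439 and 520 at 1% in litters 3 and 4 and 88.8 to 138 in the other libraries, and the squamous sum of 2079 belongs to the 1% library of litter 3.

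Among genes that respond to neuronal activity, Pcdh10 had the largest step. It encodes a protocadherin that is expressed in an activity-dependent mosaic among olfactory neurons. Pcdh10 had 213, 190 and 70.0 CPM at 100%, against 27.5, 182 and 94.8 CPM at 1%. Its controls had 49.7, 41.6, 17.1, 240 and 43.3 CPM in litters 1 to 5, so the control of litter 4 stood far above the others. Levels overlapped between the doses, but against own controls the libraries were at 4.25, 4.50 and 3.98 times at 100%, against 1.59, 0.759 and 2.17 times at 1%. The fitted difference was log2 1.60 (SE 0.32, 95% interval 0.89 to 2.30, unadjusted p = 0.000435, edgeR adjusted p = 0.68). The exact permutation p of the log2 ratios was 0.1, again the smallest possible.

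The promoter of Pcdh10 is shown because many activity-dependent genes are driven through CREB, which binds the cyclic AMP response element. The RefSeq window (GRCm38.p6, chr3:45378148-45378447, plus strand, 250 bases before to 50 after the gene start) was searched on both strands for the full element TGACGTCA and its core TGACG, and the capitals mark the matches.
Pcdh10: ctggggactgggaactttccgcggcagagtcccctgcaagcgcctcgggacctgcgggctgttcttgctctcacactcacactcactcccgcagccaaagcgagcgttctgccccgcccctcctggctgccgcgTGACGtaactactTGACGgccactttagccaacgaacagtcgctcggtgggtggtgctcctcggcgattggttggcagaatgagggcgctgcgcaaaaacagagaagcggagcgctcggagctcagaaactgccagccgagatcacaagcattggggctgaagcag
The core occurred at 2 places, 116 and 103 bases before the start, and the full element at 0. Among all 32851 RefSeq promoter windows of that length, 20.8% held the core and 1.79% the full element. A match is a description of these letters and not a site of binding.

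The early-response genes gave smaller and more scattered steps. Fos, which codes for a transcription factor made within minutes of activity, had 31.7, 116 and 7.44 CPM at 100%, against 0.86, 60.4 and 41.8 CPM at 1%. The controls had 0.79 CPM in litter 3 and 12.2 to 32.2 CPM in the other litters. Against own controls the 100% libraries were at 1.57, 9.11 and 5.51 times and the 1% libraries at 1.04, 1.86 and 1.90 times, so the ratios overlapped. The fitted difference was log2 1.49 (SE 0.62, unadjusted p = 0.0349, edgeR adjusted p = 0.785). Leaving out the control of litter 2 gave 0.80, and leaving out that of litter 1 gave 2.48. Nr4a1, an orphan nuclear receptor of the same kind of response, had 106, 345 and 108 CPM at 100%, against 52.9, 167 and 107 CPM at 1% (log2 1.19, SE 0.53, unadjusted p = 0.0461). One library, the 100% one of litter 2, was far above the rest, at 8.23 times its control.

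Egr1, another early-response transcription factor, had 22.0, 60.1 and 13.1 CPM at 100%, against 10.3, 22.0 and 14.5 CPM at 1% (log2 1.06, SE 0.58, unadjusted p = 0.096). Arc did not pass the filter. Of the 19 early-response genes tested, Fos, Nr4a1 and Per1 were higher at an unadjusted p under 0.05 (15.8%, beside 3.52% of all genes). At that p, 0 were lower (beside 2.75%). The 3 ratios to own controls at 100% all lay above the 3 at 1% for 0 of the 19 (beside 5.27% of all genes), and all below for 0 (beside 5.24%). The median of the 19 genes was log2 0.30, beside 0.00 over all genes. The summed level of these genes was 755, 817 and 348 CPM at 100%, against 259, 974 and 763 CPM at 1%, and the groups overlapped. The controls of litters 1 to 5 were at 730, 341, 332, 799 and 843 CPM, so the sum also differed between litters without odor. The median of the log2 dose differences was -0.22 without the litter block.

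Of 12 genes tested in the list of activity-dependent olfactory genes, Pcdh10, Kirrel3 and Nrp1 were higher at an unadjusted p under 0.05 (25%, beside 3.52% of all genes) and 0 were lower (beside 2.75%), with a median of log2 0.46. The list does not sort its members by the direction in which activity moves them, so the count does not measure activity. Kirrel3, an adhesion molecule that helps sort axons, had 26.5, 12.8 and 13.1 CPM at 100%, against 9.04, 17.3 and 33.1 CPM at 1% (log2 1.40, SE 0.50). Nrp1, a guidance receptor on the same axons, had a step of log2 0.53 (SE 0.24). Kirrel2, a related adhesion molecule, had 450, 592 and 308 CPM at 100%, against 315, 528 and 399 CPM at 1% (log2 0.57, SE 0.37), which did not reach an unadjusted p of 0.05. S100a5, a calcium-binding protein whose message is lost from silent olfactory neurons, was lower at 100% in the fit. It had 1143, 2433 and 1459 CPM at 100%, against 1782, 1674 and 1364 CPM at 1% (log2 -0.80, SE 0.48, 95% interval -1.85 to 0.26). Its control in litter 5 had 232 CPM against 1177 or more in the other controls, and the 1% library of that litter stood at 5.87 times it.

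The lists of neuron genes had medians of log2 0.29 for the transduction cascade, 0.27 for mature neurons and 0.06 for immature neurons. Of 17 cascade genes tested, Adcy3 and Ano2, the calcium-activated chloride channel of the cilia, were higher at an unadjusted p under 0.05 (11.8%, beside 3.52% of all genes). At that p, 0 were lower (beside 2.75%). Ano2 had 131, 178 and 180 CPM at 100%, against 130, 137 and 209 CPM at 1% (log2 0.62, SE 0.25). The value of Adcy3 (log2 0.97, SE 0.31) includes litter 3, where it was at 17.5 CPM at 100%, 5.59 CPM at 1% and 5.56 CPM in the control. Omp stood at 1254, 199 and 239 CPM at 100%, against 290, 1534 and 1861 CPM at 1%, and its controls were at 120 to 226 CPM in litters 2 and 3 and at 958 to 2113 CPM in the others. Once litter was taken out, Omp differed by log2 0.25 (SE 0.24, 95% interval -0.28 to 0.78). Gap43, the growth cone protein of immature neurons, differed by log2 -0.01 (SE 0.23, 95% interval -0.52 to 0.51).

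Outside the neurons, the smallest p-value of all belonged to Dlk1, a membrane protein of the Notch ligand family. Dlk1 had 20, 0 and 0 counts at 100%, against 5, 6 and 18 counts at 1%. The controls had 544 counts in litter 1 and 2 to 9 counts in the others. The fitted difference of log2 -5.55 (SE 0.70) rests on groups near 0 and is no bound. The control with 544 counts is the library that held 28333 counts of pituitary genes, and the part of those genes in the result was not tested. Without that control Dlk1 no longer passed the filter.

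Skeletal muscle genes were lower at 100% in 4 of 17 tested at an unadjusted p under 0.05 (23.5%, beside 2.75% of all genes). At that p, 0 were higher (beside 3.52%), and the median of the list was log2 -1.79. The 4 were the oxygen store Mb, the calcium pump Atp2a1, the light chain Mylpf and the troponin Tnni2. Atp2a1 had 1.74, 0.71 and 3.50 CPM at 100%, against 57.7, 40.3 and 4.82 CPM at 1%. The 1% libraries of litters 3 and 4 were high and that of litter 5 was not, and the 5 controls had 1.11 to 6.49 CPM. The sum over all muscle genes was 113, 109 and 88.8 CPM at 100%, against 439, 520 and 92.3 CPM at 1%, with 106 to 138 CPM in the controls. Without the 1% library of litter 3 the median was -0.56.

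The list of keratinised squamous epithelium showed 3 of 17 genes lower at 100% at an unadjusted p under 0.05 (17.6%, beside 2.75% of all genes): Calm4, Ly6d and Slurp1. At that p, 0 were higher (beside 3.52%), and the median of the list was log2 -1.39. Calm4, a calmodulin-like protein of stratified epithelia, had 12.6, 21.3 and 2.63 CPM at 100%, against 317, 7.41 and 0.64 CPM at 1%. Only the 1% library of litter 3 was high. The summed list was at 1020, 504 and 238 CPM at 100%, against 2079, 636 and 278 CPM at 1%, and at 185 to 946 CPM in the controls. Without that 1% library the median was 0.44, of the opposite sign. The part that muscle and squamous tissue in the 1% libraries of litters 3 and 4 played in the other values was not tested.

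Of 20 fibroblast and matrix genes tested, Col6a3, Aebp1, Col3a1, Fn1 and Col6a2 were higher at 100% at an unadjusted p under 0.05 (25%, beside 3.52% of all genes). They code for collagens, a collagen-binding protein and fibronectin. At that p, 0 were lower (beside 2.75%). The list's median was log2 0.18, inside the quartiles of all genes (-0.29 and 0.32), and 0.005 without the 1% library of litter 3. With GC and length correction the median was 0.048. Col6a3 had 48.5, 64.7 and 116 CPM at 100%, against 55.1, 27.7 and 27.0 CPM at 1%, and 38.0 to 110 CPM in the controls. The 100% libraries were at 1.20, 1.69 and 1.05 times their controls and the 1% libraries at 0.504, 0.645 and 0.556 times theirs. The fitted difference was log2 1.17 (SE 0.24, edgeR adjusted p = 0.68), and against the controls it was 0.37 at 100% and -0.79 at 1%. The summed matrix list was at 19954, 14175 and 23597 CPM at 100%, against 19708, 9094 and 14964 CPM at 1%, and at 15861 to 28334 CPM in the controls.

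The remaining genes with the smallest p-values had varied roles, and the part of transcript length in their differences was not tested. Cenpf, a kinetochore protein of dividing cells, had 73.6, 24.2 and 482 CPM at 100%, against 221, 47.2 and 44.4 CPM at 1%, and its controls ranged from 18.8 to 594 CPM with the highest in litter 3. Its step was log2 1.41 (SE 0.29, edgeR adjusted p = 0.68). Dennd5a, a regulator of Rab proteins in membrane traffic, had 303, 303 and 322 CPM at 100%, against 173, 229 and 289 CPM at 1%, and 226 to 381 CPM in the controls (log2 0.82, SE 0.17). Its 100% libraries were at 1.30 to 1.36 times their controls and its 1% libraries at 0.734 to 0.817 times theirs. Myh14, a non-muscle myosin, had 635, 148 and 602 CPM at 100%, against 39.2, 824 and 555 CPM at 1% (log2 2.62, SE 0.54), and without the litter block its value was -0.04.

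Lower at 100% were also the protease inhibitor Slpi, with 9.41, 6.76 and 11.4 CPM at 100% against 96.0, 36.8 and 18.0 CPM at 1% (log2 -2.36, SE 0.59), and the mucin-branching enzyme Gcnt3, with 9.76, 20.6 and 10.9 CPM at 100% against 36.6, 70.3 and 42.8 CPM at 1% (log2 -1.57, SE 0.39). For Slpi and Gcnt3 every 100% library was below every 1% library. Neither passed the adjusted test (0.737 for both). H2-T22 and H2-T9 had identical counts and are 1 measurement (log2 -1.31, SE 0.30). Sets of sustentacular, gland, basal and heat-shock genes had medians between log2 -0.20 and 0.08.

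The same dose step could be read for TMT, the fox-odor thiazoline used as the other odor of the series, in its 12 libraries of 4 litters with all 3 conditions in each. Olfr30 had 47.4, 25.6, 26.0 and 63.0 CPM at 100% TMT, against 14.8, 15.4, 17.2 and 27.5 CPM at 1% TMT, higher in 4 of 4 litters (a step of log2 1.01 with an SE of 0.27, adjusted p = 0.221 in edgeR). Olfr376 had 22.8, 14.3, 4.09 and 16.4 CPM at 100% TMT, against 19.6, 17.5, 13.1 and 26.3 CPM at 1% TMT, lower in 3 of 4 litters (log2 -0.60, SE 0.46). The TMT step was log2 3.41 (SE 1.05) for Olfr1047, 4.09 (SE 1.31) for Olfr937, 4.46 (SE 1.45) for Olfr1087 and 2.92 (SE 0.96) for Olfr1449. None passed edgeR's adjusted test (adjusted p = 0.303, 0.327, 0.303 and 0.327). Receptors as a whole took only 0.0232 to 0.27% of counts in the TMT libraries. For Olfr19 it was -0.27 (SE 1.48), for Olfr745 0.54 (SE 1.37) and for Pcdh10 0.49 (SE 0.25). Between 100% and 1% TMT, 0 genes passed edgeR's adjusted test. In a fit of all 23 libraries, the acetophenone step minus the TMT step was log2 0.79 for Olfr30 (SE 0.47, edgeR adjusted p = 0.858), 2.61 for Olfr376 (SE 0.84, unadjusted p = 0.00682, adjusted p = 0.701) and 1.11 for Pcdh10 (SE 0.45, adjusted p = 0.814). Of 13831 genes tested, 0 passed for that difference of steps and 794 had an unadjusted p under 0.05 (5.74%). In the odor libraries alone, with no litter block, the count was also 0.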

How the data were processed

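RNA from pS6 pull-downs was sequenced after cDNA amplification and a Nextera library, per the labels' protocols. Bowtie, bedtools and the mm10 build are named per the submitters' processing notes, with versions not given in the sources used here. All files list 23481 genes with 20 value columns that never decreased from left to right. The first value column, which the authors' files hold as whole numbers, was used as unique counts, and the last deposited column as estimated counts (rounded) in an alternative. The meaning of these columns was read from their values.

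Counts of the 11 acetophenone libraries (2118099 to 4151769 per library) were filtered with filterByExpr at a minimum count of 10, scaled with TMM and fitted in edgeR 4.0.16 (R 4.3.3) with group and litter, using the quasi-likelihood test and Benjamini-Hochberg adjustment at 0.05. CPM are TMM-scaled. Ratios to own controls used log2 CPM with a prior count of 2. SEs of log2 fold changes were derived from the F statistic, with residual degrees of freedom of 4 and prior degrees of freedom of 6.72. limma 3.58.1 and DESeq2 1.42.0 served as alternatives. The scripts were tested on simulated data. Same-litter libraries deviated together: odor libraries correlated with the control of their own litter at 0.5 to 0.839, the labels name the litter, and the consensus correlation within litters was 0.692. Library names follow a different code series in litter 1, in litters 2 and 3, and in litters 4 and 5. The labels do not say whether a code series is a batch. Each litter lies within a single series, so an effect of the series could not be told apart from one of litter. The series also go partly with dose. That of litter 1 holds no diluted acetophenone library, and that of litters 4 and 5 holds no undiluted acetophenone library. Only the series of litters 2 and 3 holds both doses. Litter numbers of the TMT experiment were taken as different litters.

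The genes, lists and receptors described were chosen with earlier results of these data known. Named genes were Olfr30 and Pcdh10, the 10 smallest p-values in each direction, the 5 receptors with the smallest p in each direction, 3 short receptor lists, and 7 activity or neuron markers. Olfr1349, Olfr744, members of gene lists and genes that marked a single library or litter were added after their values were seen. Coordinates and coding sequences are from GENCODE M21, which matched 21911 symbols, and the promoter from RefSeq (GRCm38.p6).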

Additional observations from a re-analysis of the deposited data

Results flagged for a closer look

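Among 47 sets of 5 control values, 8 had 1 control far from the other 4, and chance gives about 1 in 20 for sets of values not chosen by their test. These genes were mostly chosen for a small p in a fit that used the same controls, and H2-T22 and H2-T9 are 1 measurement counted as 2, so the number of such sets is not read against that rate. Dlk1 stood at 190.3 CPM in the control of litter 1, and H2-T22 and H2-T9, which share their counts, at 37.08 CPM in the same library. Pcdh10 stood at 240.2 CPM and Gcnt3 at 62.16 CPM in the control of litter 4. Cenpf stood at 594 CPM, Col6a3 at 109.9 CPM and Olfr1047 at 3.571 CPM in the control of litter 3.

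For 10 named genes the log2 ratios to own controls were of the same sign in every 100% library and of the opposite sign in every 1% library. The genes were chosen for a small p of the dose difference, H2-T22 and H2-T9 are 1 measurement, and 378 of all 12873 genes tested (2.94%) had such opposite signs. The log2 difference of 100% minus 1% was 0.8193 for Dennd5a, 1.167 for Col6a3, 2.299 for Gpsm1 and 1.336 for Pole, which were above their controls at 100% and below them at 1%. It was -2.305 for Mb, -1.309 for H2-T22 and H2-T9, -1.091 for Pdzk1ip1, -1.568 for Gcnt3 and -2.748 for Olfr1157, which ran the other way. Some ratios at 100% were very close to 1. In litter 2, Mb had 35 counts both at 100% and in the control, and Gcnt3 had 58 in both. The fitted level of Olfr1157 at 100% against the controls was log2 0.01, so a sign alone does not show a change. The counts of Pdzk1ip1 lay within 3.96% of those of Lman2. None of these dose differences passed edgeR's test after adjustment.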

How the results depend on the processing

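The count of genes between 100% and 1% was 0 in the edgeR fit, 4 with DESeq2, 26 with libraries scaled to receptor counts, which moved the median of all genes to log2 -0.1015, and 3 with no filter. The 26 split into 13 higher and 13 lower. For 100% against controls the count was 11, against 0 with no replicate block, 1 with the block as a random effect in limma voom, 40 with DESeq2, 52 with receptor scaling, 28 with no filter and 6 at a minimum count of 50. For 1% against controls it was 1, against 0 with no replicate block, 0 with limma voom, 37 with DESeq2, 65 with receptor scaling and 21 with no filter. Leaving out single libraries or litters gave 0 to 5 genes between the doses, 0 to 18 at 100% and 0 to 8 at 1%. The 5 came without the 1% library of litter 5 or without litter 5, and 3 without the control of litter 5, all lower at 100%. Without either library of litter 1 the count was 1, higher at 100%. Among the named genes, Calm4 passed between the doses in 5 alternatives, Atp2a1 in 4, Dlk1 in 3 and Myh14 in 2. Mb, Slpi, Cenpf, Pcdh10, Olfr30 and Olfr19 passed in 1 each. The receptor share difference of 0.1503 ranged from -0.1543 without litter 4 to 0.3985 without litter 5.

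Of 45 named genes, 33 kept their direction throughout, and Olfr30 ranged from 1.657 to 2.251. With no replicate block the value turned to -0.03504 for Myh14, -0.3917 for Gpsm1, 0.3537 for Olfr57, 0.06318 for S100a5, 0.501 for Olfr983, 0.0233 for Olfr923, -1.123 for Omp, 0.6823 for Olfr1377, 0.2428 for Olfr491, 0.6586 for Olfr145 and 0.403 for Gap43. In the 6 odor libraries with no block these were -0.03872, -0.3966, 0.3493, 0.05841, 0.4959, 0.02064, -1.128, 0.6786, 0.2391, 0.6593 and 0.3988, in the same order of genes. limma voom gave -0.1281 for Omp, 0.6239 for Olfr145 and 0.1367 for Gap43, and receptor scaling gave -0.2037 for Olfr136. Gap43 was 0.003289 with DESeq2, 0.003384 with median-ratio scaling, 0.006631 at a minimum count of 50, 0.005575 with estimated counts and 0.1145 with GC and length correction. Leaving out libraries turned Olfr1377 (-2.069 to 0.1952), Olfr491 (-1.354 to 0.1144), Olfr145 (-0.8425 to 1.212), Gap43 (-0.175 to 0.3135), Olfr136 (-0.6615 to 0.4928) and Olfr983 (-1.037 to 0.3383). The causes were not tested. The median SE of the dose difference was 0.836 on the log2 scale for receptors, beside 0.393 for all genes.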

Other observations

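Genes of tooth enamel appeared in single libraries of each group. Amelx, the main enamel matrix protein, had 203 counts in the 100% library of litter 2, 81 in the 1% library of litter 4 and 118 in the litter 5 control, with no more than 2 elsewhere. Ambn, a second enamel matrix protein, had 40, 15 and 24 counts in the same libraries.

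Trace amine-associated and vomeronasal receptors were too sparse to describe by gene: 2 of 15 and 8 of 328 symbols passed the filter, and 0 had an unadjusted p under 0.05 in edgeR's test.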
